A study of Caenorhabditis elegans with 4 samples.

Results

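The C. elegans genes named linc with a number are annotated as long intergenic non-coding RNAs, and 170 of them have a row in the deposited expression table. Members were the non-coding genes with such a name and a value above 0 in at least 2 of the 4 libraries. This gave 120 members of 170 linc genes, and of 41614 genes with a value. Of the other 50 linc genes, 29 were listed at 0 in every library and 21 were above 0 in 1 library. Annotation gives 119 members the type lncRNA and linc-171 the type ncRNA.

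RNA-seq of total RNA compared whole C. elegans larvae of 2 genotypes, with 2 libraries each: dve-1(uf171) mutants, and wild type animals. DVE-1 is a homeodomain protein, best known for its part in the response of cells to stressed mitochondria. Animals of both genotypes grew at 25 °C on plates seeded with OP50 bacteria, and each library came from many pooled larvae. The stage label is L4, while the protocol text speaks of L1 larvae, so the stage is given as labelled.

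Long intergenic non-coding RNAs are transcripts that lie between protein-coding genes and hold no long open reading frame. Those studied in animals act in many ways: some bind proteins or small RNAs, some act through the process of their own transcription, and for most no function is known. In C. elegans the linc genes came from assembly of RNA-seq reads across development, and few have an assigned role. They are therefore ordered here by level and by how they differ between the genotypes. Among better known long non-coding RNAs of the worm, tts-1 associates with ribosomes in long-lived animals, rncs-1 inhibits the Dicer enzyme, and lep-5 takes part in developmental timing.

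Values are FPKM, fragments scaled to transcript length and library size, summed over the accessions of a gene. Low FPKM values fall in steps of 1 fragment. The steps correspond to about 16800000 and 16600000 fragments in mutant replicates 1 and 2, and about 17500000 and 18100000 in wild type replicates 1 and 2. Genes with 1 FPKM or more numbered 14318 and 14411 in the mutants and 14537 and 14339 in wild type. The mutated gene, dve-1, had 23.0 and 21.1 FPKM in the mutant libraries, against 14.2 and 13.9 FPKM in the wild type libraries. Its log2 fold change was 0.62 ± 0.18 (SE) with a limma adjusted p of 0.874. No source used here calls uf171 a deletion, and its level is no check of the labels. The libraries differed in germ line and cuticle transcripts within genotypes. The median over 25 major sperm protein (msp) genes was 266 and 827 FPKM in the mutant libraries and 698 and 435 FPKM in the wild type libraries, with none at 0. The median over 10 oocyte genes was 14.6 and 59.2 FPKM in the mutant libraries and 27.7 and 18.6 FPKM in the wild type libraries. The median over 109 tested cuticle collagen (col) genes was 57.0 and 278 FPKM in the mutant libraries and 72.3 and 92.9 FPKM in the wild type libraries.

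The members were mostly low, with a few high ones. The median of their mean levels over the 4 libraries was 1.75 FPKM, against 14.6 FPKM over 16190 protein-coding genes and 4.64 FPKM over 1036 other long non-coding, ncRNA and antisense genes, all held to the same rule of at least 2 libraries. The highest mean was 286 FPKM, of linc-2, and the lowest was 0.0141 FPKM. A mean of 10 FPKM or more was seen in 28 members, of 5 to 10 FPKM in 5, of 1 to 5 FPKM in 34, of 0.1 to 1 FPKM in 38 and below 0.1 FPKM in 15. The pair linc-2 and linc-6 held between 31.4% and 41.0% of the summed member FPKM of a library, and the 10 highest members held between 58.3% and 71.3%. That sum was 1086.4 and 1231.8 FPKM in the mutant libraries, against 1607.2 and 1359.0 FPKM in the wild type libraries. Both mutant sums were below both wild type sums, while the number of members at 1 FPKM or more overlapped, with 69 and 64 in the mutant libraries and 64 and 66 in the wild type libraries.

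**Figure D1:**
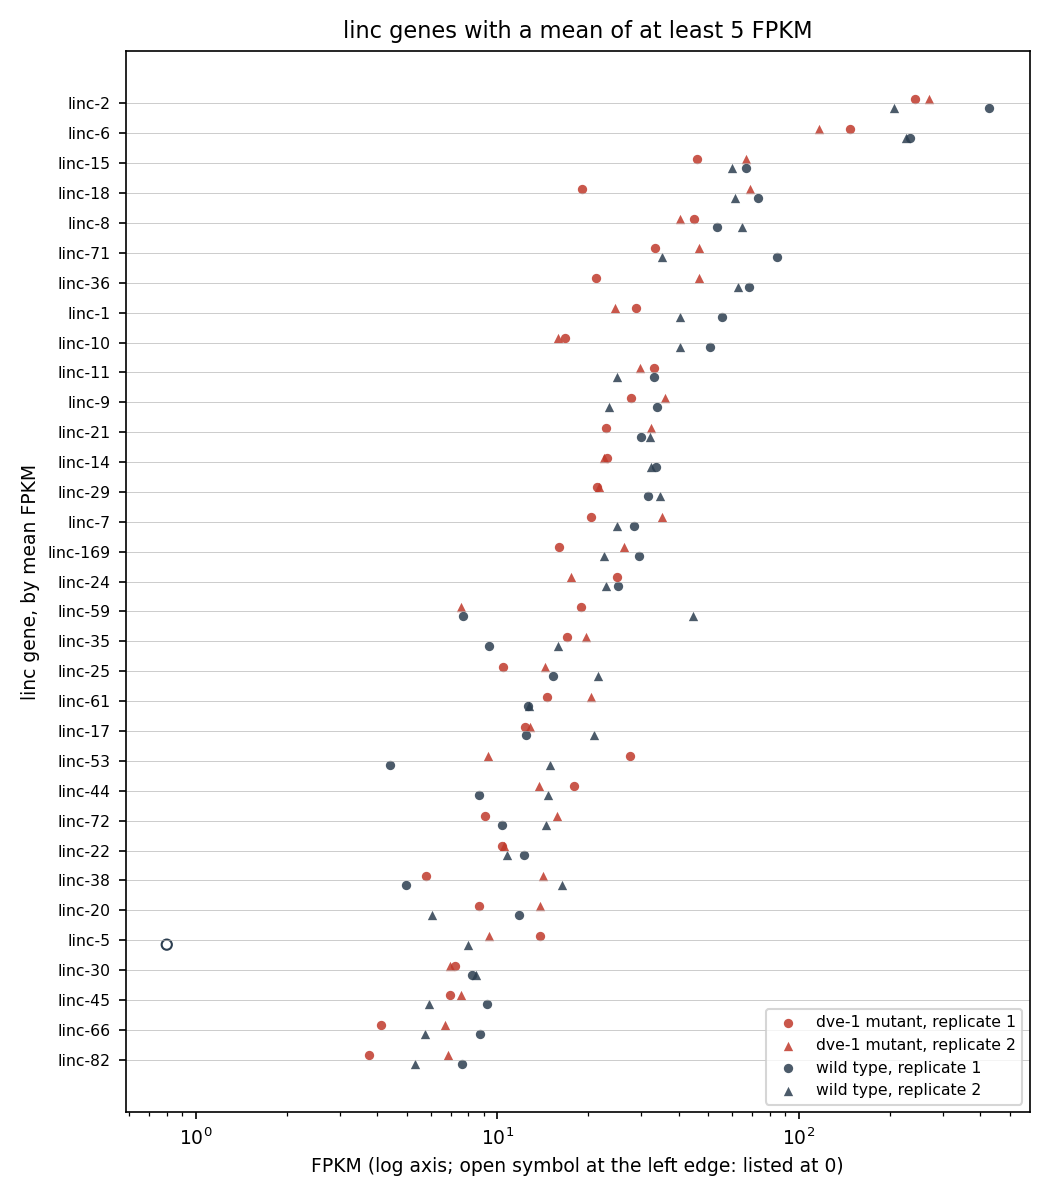
FPKM (log axis) of the 33 linc genes with a mean of at least 5 FPKM, 1 gene per row in order of mean level, with red symbols for the 2 dve-1 mutant libraries and dark symbols for the 2 wild type libraries. Both red symbols lie left of both dark ones for linc-6, linc-8, linc-36, linc-1, linc-10, linc-14, linc-29, linc-25, linc-22 and linc-30, and linc-5 is listed at 0 in wild type replicate 1 (open symbol).

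The level followed the number in the gene's name. Across the 120 members the Spearman correlation of the number with mean FPKM was -0.803, a description across genes that share the same libraries. Among linc-1 to linc-25 the median was 22.6 FPKM over all 25 genes, with 3 listed at 0 in all libraries. Among the 26 genes linc-146 to linc-171 it was 0.0216 FPKM, with 5 listed at 0. Exceptions were linc-169, which had 15.96 and 26.18 FPKM in the mutant libraries and 29.5 and 22.5 FPKM in wild type, plus linc-31 with a mean of 0.124 FPKM, both chosen after their values were seen. In the annotation, an exon of linc-169 overlaps the protein-coding gene mtch-1 on the opposite strand and a pseudogene on the same strand. An exon of linc-31 overlaps the protein-coding gene D1014.13 on the opposite strand. How the numbers were assigned is not stated in the sources used here.

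**Figure D2:**
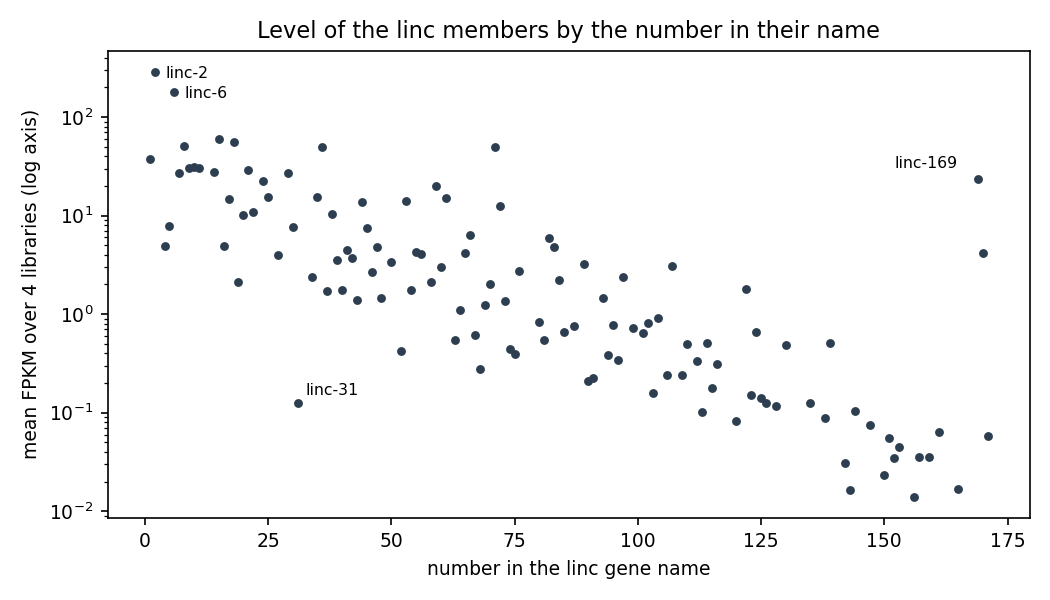
Mean FPKM over the 4 libraries (log axis) of the 120 members against the number in their name, 1 point per gene. Levels are lower at higher numbers, with linc-169 far above and linc-31 far below genes of similar number.

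The members were short genes with few exons. In the Ensembl annotation of WBcel235, 37 have 1 exon, 60 have 2 and 23 have 3 or more. Their spliced length has a median of 467 nt and a range of 127 to 4183 nt, against a median of 372 nt for the 50 linc genes that were not members. They lie on all 6 chromosomes: 17 of the 22 linc genes on chromosome I were members, 28 of 34 on II, 19 of 22 on III, 16 of 26 on IV, 16 of 33 on V and 24 of 33 on X. The share was lowest on V.

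Despite the name, many members are not clear of other genes. An exon of 35 of the 120 members overlaps an exon of another annotated gene, a protein-coding one for 23 members, on the same strand for 15 and on the opposite strand for 10. A further measure is position: 11 members lie within the span of a protein-coding gene, 61 have a flanking protein-coding gene within 1 kb, and the median distance to the nearer flanking gene is 871 nt. These distances leave out genes that overlap the member itself. The strandedness of the libraries is not given in the sources used here, so reads of a member and of an overlapping gene on either strand cannot be told apart.

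Level and the number of fragments behind it were different things for short members. A level in FPKM divides by a length from which the fragment size has been taken off, so 1 fragment is worth about 10.5 FPKM for linc-2 (127 nt) and about 0.0849 FPKM for linc-8 (878 nt). Linc-2, with the highest mean level, rested on about 22.5 and 24.7 fragments in the mutant libraries and 41.1 and 20.6 in the wild type libraries. Linc-8, at a lower level of 45.0 and 40.4 FPKM in mutant libraries and 53.7 and 64.8 FPKM in wild type libraries, rested on about 516 and 458 fragments in the mutant libraries and 641 and 801 in the wild type libraries. Of the 10 highest members, 6 have a spliced length under 250 nt. Of the 65 tested members with a single accession, 12 had a mean of at least 100 estimated fragments per library, 32 had at least 20, and 17 had fewer than 5. Among member values of 0.5 to 4.5 estimated fragments, 70.1% of 164 lay within 0.1 of a whole number, where evenly spread values would give 20%.

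**Figure D3:**
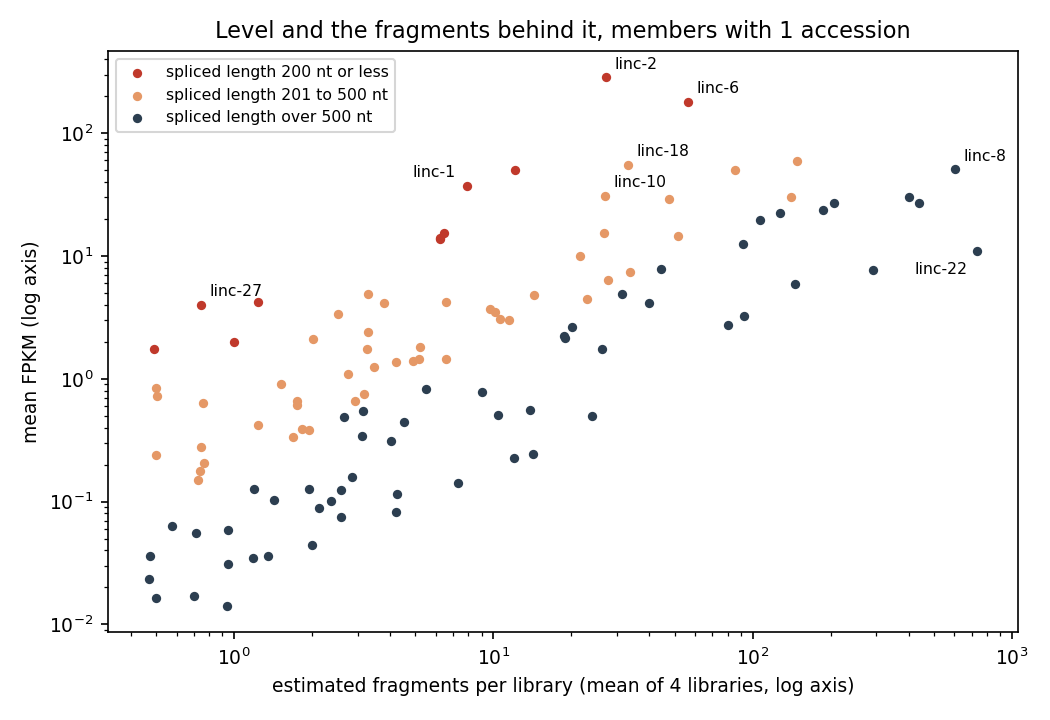
Mean FPKM against mean estimated fragments per library (both log axes) for the 114 members with a single accession, coloured by spliced length. At the same number of fragments the shortest genes (red) have the highest FPKM: linc-2 at 286 FPKM rests on fewer fragments than linc-8, and linc-22, the rightmost point, stands at 10.98 FPKM.

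Which members differed between dve-1 mutants and wild type was tested in 1 limma fit over all 14664 genes that reached 1 FPKM in 2 or more libraries. The 70 members that passed this filter entered the test and 50 did not. None of the 70 members passed an adjusted p of 0.05, with a background of 0.13% (19 of 14664 genes). The smallest adjusted p of a member was 0.239. At an unadjusted p under 0.05 there were 5 members of 70, beside 4.6% of all tested genes. All 5 (linc-10, linc-6, linc-29, linc-1 and linc-14) were lower in the mutant, where 2.54% of all tested genes were lower and 2.05% higher at that threshold. The labels do not say whether replicates were grown separately, so a p-value here reflects only how far these 4 libraries vary, which may be technical. In whole animals, fewer cells of a type and less RNA per cell cannot be told apart.

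Fold changes are those of log2(FPKM + 1), mutant minus wild type, a scale that makes differences of low genes look smaller. By sign 40 of the 70 tested members were lower and 30 were higher in the mutant, which is 57.1% lower against 53.8% of all tested genes. Both mutant values were below both wild type values for 14 members (20%), beside a background of 16.2%. Both mutant values were above both wild type values for 8 members (11.4%), beside a background of 11.9%. Together 22 members (31.4%) did not overlap, beside 28.1% of all tested genes, so the share was near the background. The median log2 fold change of the tested members was -0.13, against -0.02 over all tested genes, and their range was -1.42 to 2.05. That median was 0.05 without mutant replicate 1, and -0.02 over the tested members with no exon overlap of another gene. The tested members passed a filter on level, so these counts describe them and not all 120.

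The highest members were looked at apart. Of the 20 members with the highest means, all at 15.4 FPKM or more, 16 were lower by sign in the mutant, and the other 24 members lower by sign had lower means. Of the 20, 8 did not overlap in the lower direction and 1 in the higher direction, with a median log2 fold change of -0.46. Over the 8314 tested genes of at least that mean level, 53.7% were lower by sign, 15.8% did not overlap in the lower direction, and the median was -0.02. The highest 20 were looked at after the values were seen, and the difference from other genes of that level was not tested. Among the 12 members with at least 100 estimated fragments, 9 were lower by sign. Of the 12, 4 did not overlap in the lower direction and 0 in the higher direction. No share of all genes at that depth is given beside these counts, and the difference was not tested.

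**Figure D4:**
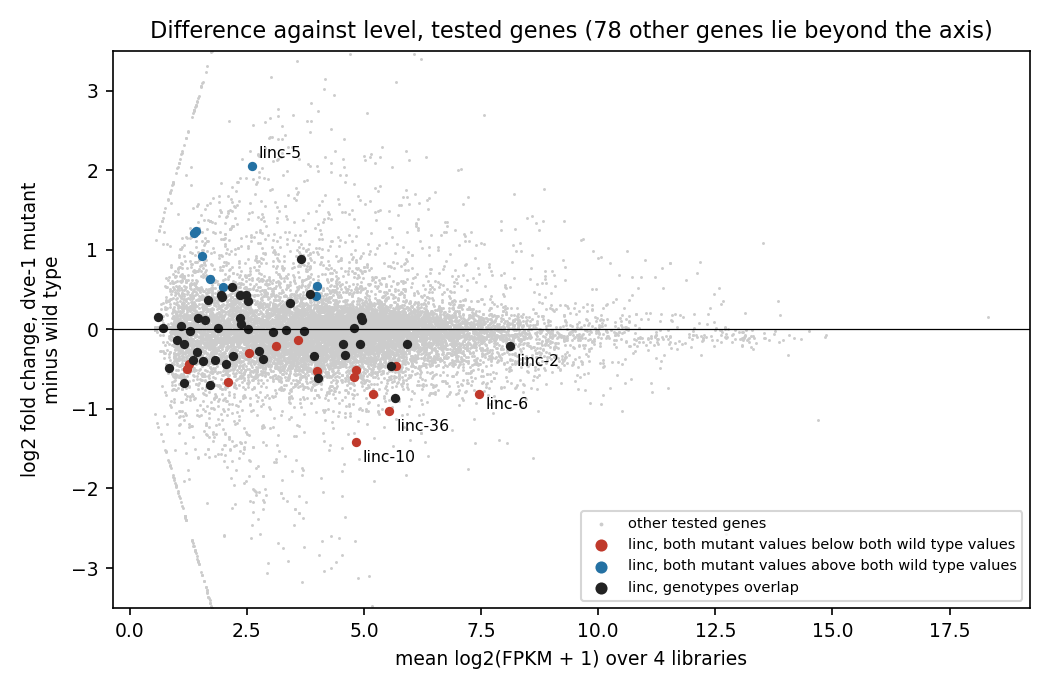
Log2 fold change, dve-1 mutant minus wild type, against mean log2(FPKM + 1) for the 70 tested members (large points) and the other tested genes (grey points; 78 lie beyond the axis). Red points, with both mutant values below both wild type values, include the members at high level such as linc-6 and linc-10, and blue points, with both mutant values above, lie at low to middle level.

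The largest difference in the lower direction was that of linc-10 (F39E9.24), a gene of 2 exons and 232 nt on the minus strand of chromosome II, 3313083 to 3313507. It had 16.8 and 15.9 FPKM in the mutant libraries, against 50.9 and 40.4 FPKM in the wild type libraries. The genotypes did not overlap, and the means were 16.3 ± 0.648 FPKM in mutants and 45.6 ± 7.44 FPKM in wild type (SD, n = 2 each), a ratio of 0.358. The log2 fold change was -1.42 ± 0.20 (SE), with an unadjusted p of 0.00246 and a limma adjusted p of 0.239. These levels correspond to about 14 and 13 fragments in the mutant libraries, with exact Poisson 95% intervals of 7.65 to 23.5 and 6.92 to 22.2. In the wild type libraries they correspond to about 44 and 36 fragments, with intervals of 32.0 to 59.1 and 25.2 to 49.8. The mutant intervals end below the start of the wild type intervals, and they cover counting error only. An exon of linc-10 overlaps one of the protein-coding gene F39E9.6 on the same strand, which had 0 (listed) and 3.25 FPKM in the mutant libraries and 1.54 and 1.49 FPKM in the wild type libraries. Linc-10 lies within the span of that gene. The FPKM of linc-10 was the higher in all 4 libraries, but 1 fragment is worth about 1.16 FPKM for so short a gene. Whether the reads of linc-10 are separate from those of F39E9.6 cannot be told.

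The second highest member, linc-6 (F52D2.13), is a single exon of 174 nt on the minus strand of chromosome X, 1982710 to 1982883. It had 147 and 117 FPKM in the mutant libraries, against 233 and 226 FPKM in the wild type libraries. The genotypes did not overlap, with means of 132 ± 21.7 FPKM in mutants and 230 ± 5.02 FPKM in wild type (SD, n = 2 each). The log2 fold change was -0.81 ± 0.17 (SE), with an unadjusted p of 0.0105 and a limma adjusted p of 0.573. Behind these levels stood about 44 and 35 fragments in the mutant libraries and about 73 in each wild type library. Its exon overlaps the ncRNA gene F52D2.14 on the same strand, which was far higher, with 1165 and 1323 FPKM in the mutant libraries and 1556 and 1341 FPKM in the wild type libraries. That gene was also lower in both mutant libraries than in both wild type libraries, with a log2 fold change of -0.22, and its part in the linc-6 value was not tested.

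Linc-1 (W09C5.11) has 2 exons and 157 nt on the plus strand of chromosome I, 13652524 to 13652727. It had 28.8 and 24.5 FPKM in the mutant libraries, against 55.6 and 40.5 FPKM in the wild type libraries, with no overlap. The log2 fold change was -0.81 ± 0.24 (SE), with an unadjusted p of 0.0284 and a limma adjusted p of 0.874. About 6 and 5 fragments stood behind the mutant values and about 12 and 9 behind the wild type values. The counting intervals overlapped, reaching 13.1 fragments in the mutant libraries and starting at 4.12 in the wild type libraries. The nearest protein-coding gene, rpl-31 for a protein of the large ribosomal subunit, lies 222 nt away on the other strand. It had 6104 and 5841 FPKM in the mutant libraries and 6465 and 6865 FPKM in the wild type libraries.

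Linc-29 (Y73B6BL.269) is a gene of 3 exons and 629 nt on the plus strand of chromosome IV, 6354024 to 6357243, with no exon overlapping another gene. It had 21.3 and 21.7 FPKM in the mutant libraries, against 31.5 and 34.5 FPKM in the wild type libraries. The replicates lay close together and the genotypes did not overlap. The log2 fold change was -0.59 ± 0.17 (SE), with an unadjusted p of 0.0254 and a limma adjusted p of 0.846. It was one of the better covered members, with about 155 and 156 fragments in the mutant libraries (intervals up to 182) and about 239 and 271 in the wild type libraries (intervals from 210).

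Linc-14 (C18D4.11) has 2 exons and 255 nt on the minus strand of chromosome V, 17539172 to 17539475. It had 23.1 and 22.6 FPKM in the mutant libraries, against 33.4 and 32.4 FPKM in the wild type libraries, all on 1 of its 2 accessions. The replicates were closer to each other than to the other genotype, and the log2 fold change was -0.51 ± 0.16 (SE) with an unadjusted p of 0.0364 and a limma adjusted p of 0.960. Linc-8 (F59H5.6), with 5 exons on the minus strand of chromosome II, 2501838 to 2503802, was the best covered of the 10 highest members. Its values given above did not overlap, with a log2 fold change of -0.46 ± 0.18 (SE) and an unadjusted p of 0.0677. Its counting intervals were 472 to 563 and 417 to 502 fragments in the mutant libraries and 592 to 693 and 746 to 858 in the wild type libraries. Those of the wild type pair do not meet, so for linc-8 the spread between replicates was larger than counting error. An ncRNA gene overlaps an exon of linc-8 on the opposite strand.

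For linc-36 and linc-18 the lower mutant mean rested largely on mutant replicate 1. Linc-36 (F41H10.37; chromosome IV, 5380408 to 5381217, minus strand, 291 nt) had 21.2 and 46.8 FPKM in the mutant libraries, against 68.2 and 62.8 FPKM in the wild type libraries. Both mutant values were lower, and the log2 fold change of -1.03 ± 0.43 (SE; unadjusted p 0.0767) became -0.48 without mutant replicate 1. Linc-18 (F14B6.9; chromosome I, 12215538 to 12216323, plus strand, 208 nt) had 19.0 and 68.7 FPKM in the mutant libraries, against 73.4 and 61.5 FPKM in the wild type libraries. Its genotypes overlapped, and the log2 fold change of -0.87 became 0.03 without that library. The medians of the sperm (msp), oocyte and collagen (col) genes given above were all lowest in the same library. The msp median was 266 and 827 FPKM in the mutant libraries and 698 and 435 FPKM in the wild type libraries. The part of these transcripts in the linc values was not tested.

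**Figure D5:**
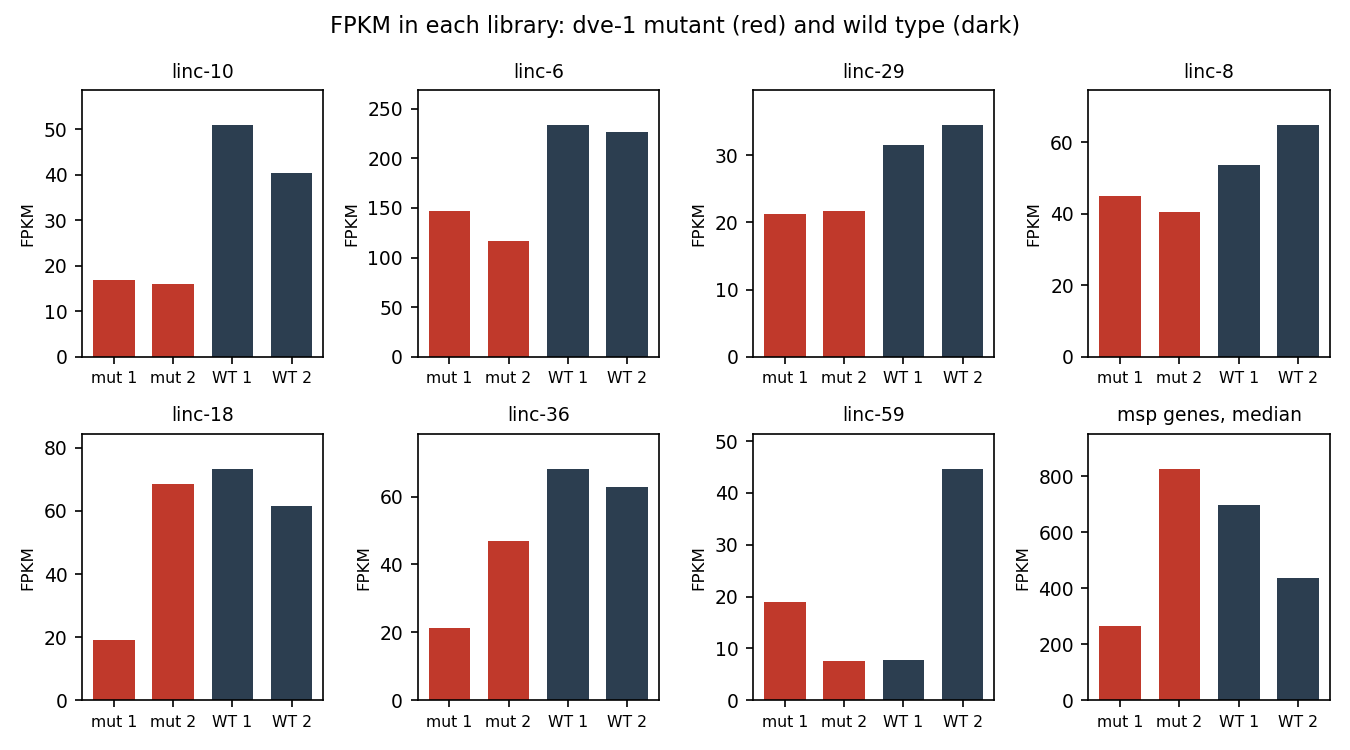
FPKM in each library for 7 linc genes and the median FPKM of 25 msp genes, with dve-1 mutant libraries in red at the left and wild type libraries in dark at the right; each panel has its own axis starting at 0. Linc-10, linc-6, linc-29 and linc-8 are lower in both mutant libraries, and linc-18 and linc-36 are lowest in mutant replicate 1 as the msp median is. Linc-59 is highest in wild type replicate 2, followed by mutant replicate 1.

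Other members of the 10 highest did not separate the genotypes. Linc-2 (R144.17; chromosome III, 5024881 to 5025007, plus strand) had 243 and 270 FPKM in the mutant libraries, against 426 and 206 FPKM in the wild type libraries, a log2 fold change of -0.21. The wild type pair enclosed the mutant pair. Its only exon overlaps pcf-11, which encodes a factor of mRNA cleavage and transcription termination, on the same strand, and pcf-11 had 36.6 and 41.9 FPKM in the mutant libraries and 40.5 and 34.5 FPKM in the wild type libraries. Linc-71 (Y49F6B.18; chromosome II, 3509948 to 3510110, plus strand, 163 nt) had 33.4 and 46.7 FPKM in the mutant libraries, against 84.5 and 35.1 FPKM in the wild type libraries. It overlaps an exon of the protein-coding gene cyh-1 on the same strand. That gene had 27.7 and 30.3 FPKM in the mutant libraries and 30.2 and 26.6 FPKM in the wild type libraries. Both linc-2 and linc-71 were highest in wild type replicate 1. Linc-15 (chromosome X, 11991484 to 11991933, 338 nt) had 46.0 and 66.9 FPKM in the mutant libraries, against 67.0 and 59.9 FPKM in the wild type libraries. Linc-11 on chromosome II (970 nt) had 32.9 and 29.7 FPKM in the mutant libraries, against 33.2 and 25.0 FPKM in the wild type libraries. Both overlapped.

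Further members with both mutant values below both wild type values were linc-25, linc-39, linc-22 and linc-30, with larger p, and linc-4, linc-43 and linc-48, all below 6 FPKM. Linc-25 on chromosome V had 10.4 and 14.4 FPKM in the mutant libraries, against 15.2 and 21.5 FPKM in the wild type libraries (log2 fold change -0.53 ± 0.29, SE). Linc-39 on chromosome I had 1.76 and 3.23 FPKM in the mutant libraries, against 5.78 and 3.30 FPKM in the wild type libraries. The closest values of linc-39 differed by less than the replicates of either genotype. Linc-22 on chromosome X, 4071 nt long, varied least of the members with at least 5 FPKM, with 10.3 and 10.5 FPKM in the mutant libraries and 12.3 and 10.8 FPKM in the wild type libraries. Linc-30 on chromosome I, a single exon of 2375 nt, had 7.22 and 6.98 FPKM in the mutant libraries, against 8.24 and 8.49 FPKM in the wild type libraries. Its genotypes were separate but close, with a log2 fold change of -0.21 ± 0.20 (SE). On the same strand, an ncRNA gene overlaps an exon of linc-25 and a snoRNA gene overlaps one of linc-22. Linc-21, near the collagen genes dpy-13 and col-34 on chromosome IV, overlapped with 22.8 and 32.3 FPKM in the mutant libraries and 30.0 and 32.0 FPKM in the wild type libraries. Linc-24 on chromosome III also overlapped, with 25.0 and 17.5 FPKM in the mutant libraries and 25.1 and 22.9 FPKM in the wild type libraries.

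The 8 members with both mutant values above both wild type values were mostly low, and none reached an unadjusted p of 0.05 in limma. The largest log2 fold change was that of linc-5 (chromosome X, 14018610 to 14019376, plus strand, 527 nt), which had 13.8 and 9.40 FPKM in the mutant libraries, against 0 (listed) and 7.97 FPKM in the wild type libraries. The log2 fold change of 2.05 ± 1.18 (SE) became 0.47 without wild type replicate 1. Among all genes, 47 were listed at 0 in some library although their median was above 50 FPKM, a level that linc-5 did not reach. Why linc-5 was listed at 0 was not tested, and that 0 is not read as absence of its RNA. An exon of linc-5 overlaps the ncRNA gene C04C11.23 on the same strand, which had 42.4 and 49.3 FPKM in the mutant libraries and 69.7 and 57.4 FPKM in the wild type libraries. That gene was highest in the library where linc-5 was listed at 0.

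At middle level, linc-35 and linc-61 were higher in both mutant libraries. Linc-35 (chromosome II, 6927637 to 6927825, minus strand, 1 exon of 189 nt) had 16.95 and 19.73 FPKM in the mutant libraries, against 9.34 and 15.9 FPKM in the wild type libraries, with a log2 fold change of 0.55 ± 0.32 (SE). Linc-61 (chromosome V, 16043099 to 16043761, minus strand, 395 nt) had 14.6 and 20.4 FPKM in the mutant libraries, against 12.6 and 12.7 FPKM in the wild type libraries, with a log2 fold change of 0.42 ± 0.24 (SE). It lies 268 nt from the histone H4 gene his-1, on the other strand. His-1 had 2.09 and 1.96 FPKM in the mutant libraries, against 3.63 and 5.94 FPKM in the wild type libraries, the opposite order to linc-61. Histone H4 genes are near-identical copies, so the value of his-1 is uncertain.

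The remaining members of this kind lay below 5 FPKM. Linc-107 had 3.74 and 3.81 FPKM in the mutant libraries, against 1.94 and 2.69 FPKM in the wild type libraries. Linc-34 had 3.52 and 2.67 FPKM in the mutant libraries, against 1.34 and 1.98 FPKM in the wild type libraries. Linc-19 had 2.72 and 3.33 FPKM in the mutant libraries, against 2.00 and 0.509 FPKM in the wild type libraries. Their log2 fold changes were 0.53, 0.63 and 0.92, and their unadjusted p in limma were 0.102, 0.0905 and 0.103. Linc-58 had 2.12 and 4.32 FPKM in the mutant libraries, against 0 (listed) and 1.98 FPKM in the wild type libraries, which is about 2 and 4 fragments against 0 and 2. Linc-70 had 2.02 and 4.11 FPKM in the mutant libraries, against 0 (listed) and 1.89 FPKM in the wild type libraries, about 1 and 2 fragments against 0 and 1. An exon of linc-70 also overlaps the protein-coding gene Y113G7A.12 on the same strand. At this depth neither pair differs by more than counting error.

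The spread between replicates of tested members was wide. The median ratio of the higher to the lower replicate was 1.44 in mutants (64 members above 0 in both libraries) and 1.5 in wild type (62 members), against 1.28 and 1.24 over all tested genes in the same genotypes. Many members rest on few fragments, and the part of counting error in this was not tested. The largest such ratio among well covered members was that of linc-59, a gene of 6 exons and 503 nt on chromosome V, 16319028 to 16320419, which overlaps a pseudogene on the same strand. It had 19.0 and 7.57 FPKM in the mutant libraries, against 7.71 and 44.7 FPKM in the wild type libraries. That is about 98.1 and 38.7 fragments in the mutant libraries and 41.6 and 249 in the wild type libraries, so each replicate pair was further apart than counting error. Other wide pairs rested on few fragments. Linc-65 had 1.13 and 6.93 FPKM in the mutant libraries, against 5.47 and 3.18 FPKM in the wild type libraries, about 1 and 6 fragments against 5 and 3. Linc-50 had 0 (listed) and 5.65 FPKM in the mutant libraries, against 1.34 and 6.48 FPKM in the wild type libraries. Linc-97 had 2.99 and 2.29 FPKM in the mutant libraries, against 3.61 and 0.700 FPKM in the wild type libraries. Linc-64 had 0.405 and 1.65 FPKM in the mutant libraries, against 1.56 and 0.758 FPKM in the wild type libraries. The genotypes overlapped for all 5 genes.

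No library held the lowest value of every member. Of the 70 tested members, 22 and 16 had their only lowest value in mutant replicates 1 and 2, and 17 and 11 in wild type replicates 1 and 2, with 4 ties. The highest value fell in mutant replicates 1 and 2 for 10 and 20 members, and in wild type replicates 1 and 2 for 25 and 15. The median deviation of the tested members from their own mean was -0.09 and 0.04 on the log2 scale in the mutant libraries, and 0.08 and 0.11 in the wild type libraries.

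The 50 members below the filter were low in FPKM, but the long ones among them rested on more fragments than many tested members. Linc-110 on chromosome II (2959 nt) had 0.346 and 0.448 FPKM in the mutant libraries, against 0.468 and 0.735 FPKM in the wild type libraries, about 16.03 and 20.53 fragments against 22.6 and 36.8. Linc-81 on chromosome V (1670 nt) had 0.840 and 0.630 FPKM in the mutant libraries, against 0.481 and 0.260 FPKM in the wild type libraries, about 20.8 and 15.4 fragments against 12.4 and 6.94. The genotypes did not overlap for either, lower in the mutant for linc-110 and higher for linc-81, and both were chosen after their values were seen. Exons of linc-110 overlap ncRNA genes on both strands, all listed at 0 in every library, and linc-133 on the opposite strand. Linc-133 was above 0 only in wild type replicate 2, at 0.0953 FPKM, the library where linc-110 was highest. Its part in the linc-110 value was not tested. No exon of linc-81 overlaps another gene. No member listed at 0 in both libraries of a genotype exceeded 0.486 FPKM or about 2.83 fragments elsewhere: 3 were at 0 in both mutant libraries and 4 in both wild type libraries. For 2 members with a pair of accessions the split itself varied. Linc-38 had 1 accession at 3.48 and 1.57 FPKM in the mutant libraries and 4.06 and 5.68 FPKM in the wild type libraries. Another stood at 2.32 and 12.6 FPKM in the mutant libraries and 0.914 and 10.7 FPKM in the wild type libraries. The second accession was higher in replicate 2 of both genotypes. For linc-83, 1 accession had 3.67 and 5.23 FPKM in the mutant libraries and 2.56 and 0 (listed) FPKM in the wild type libraries. The other had 0.725 and 1.60 FPKM in the mutant libraries and 2.19 and 3.07 FPKM in the wild type libraries. The division of reads between overlapping accessions is an estimate, so single accessions are less certain than their sum.

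Differences of members were little correlated with those of neighbouring genes. For 48 tested members with a tested nearer protein-coding neighbour, the log2 fold changes had a Pearson correlation of 0.113 and a Spearman correlation of 0.0623, with the same sign in 23. For the 27 within 1 kb the Spearman correlation was -0.142, with the same sign in 12. For the 10 members whose exon overlaps a tested protein-coding gene it was -0.309, with the same sign in 5. These are descriptions across genes of the same libraries. A single pair with a wide difference, chosen after its values were seen, was linc-72 and F46C5.1 on its opposite strand. F46C5.1 had 4.104 and 5.223 FPKM in the mutant libraries, against 13.2 and 13.1 FPKM in the wild type libraries (log2 fold change -1.33, limma adjusted p 0.382). Linc-72 had 9.13 and 15.8 FPKM in the mutant libraries, against 10.3 and 14.5 FPKM in the wild type libraries, with overlap.

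The 3 better known long non-coding RNAs were all lower in both mutant libraries than in both wild type libraries, and none was called. Of all tested genes 16.2% were lower in this way. Tts-1 had 234 and 281 FPKM in the mutant libraries, against 342 and 298 FPKM in the wild type libraries. Rncs-1 had 20.3 and 24.2 FPKM in the mutant libraries, against 25.9 and 34.6 FPKM in the wild type libraries. Lep-5 had 951 and 1033 FPKM in the mutant libraries, against 1182 and 1054 FPKM in the wild type libraries. Their log2 fold changes were -0.31, -0.42 and -0.17, with unadjusted p in limma of 0.134, 0.154 and 0.272. Among the anr genes, which encode antisense RNAs, 16 of 27 were tested, with 4 higher and 1 lower without overlap, beside 11.9% and 16.2% of all tested genes, and none called. Over the 904 tested other long non-coding, ncRNA and antisense genes, 15.6% were lower and 19.1% higher without overlap, and 12 were called.

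Of the genes whose products degrade RNA (nonsense-mediated decay, the exosome, decapping), 19 of 23 listed had a value and were tested, with none called. By sign 16 were higher and 3 lower, where 53.8% of all tested genes were lower. Without overlap 6 were higher and 0 lower, beside 11.9% and 16.2% of all tested genes, and the median log2 fold change was 0.11. The smallest p were those of exos-3, xrn-2 and exos-9. The exosome subunit gene exos-3 had 38.5 and 53.7 FPKM in the mutant libraries and 42.1 and 30.6 FPKM in the wild type libraries. The exonuclease gene xrn-2 had 42.5 and 45.6 FPKM in the mutant libraries, against 39.7 and 37.6 FPKM in the wild type libraries. The exosome subunit gene exos-9 had 36.9 and 36.2 FPKM in the mutant libraries, against 31.3 and 32.8 FPKM in the wild type libraries. Both xrn-2 and exos-9 separated the genotypes by small steps, and exos-3 overlapped.

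Of 19 genes of small RNA pathways, 18 were tested and none was called, with 9 higher and 9 lower by sign. Without overlap there were 2, both lower in the mutant, beside 16.2% of all tested genes in that direction. The RNA-dependent RNA polymerase gene rrf-1 had 39.3 and 47.4 FPKM in the mutant libraries, against 51.5 and 53.1 FPKM in the wild type libraries. The gene ain-2, for a protein of the miRNA silencing complex, had 38.0 and 52.9 FPKM in the mutant libraries, against 57.5 and 54.3 FPKM in the wild type libraries. Their log2 fold changes were -0.27 and -0.31, each with an unadjusted p above 0.05.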

How the data were processed

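Whole larvae of 2 genotypes, with 2 libraries each, were grouped by their labels. The values the authors deposited, 1 per RefSeq accession and library, were read as FPKM made with TopHat2 and Cufflinks on ce11, as named in the submitters' processing notes. The header gives no unit, and FPKM are not counts. Tool versions, the library kit and strandedness: not given in the sources used here. Accessions were matched to WBcel235 genes with the version ignored (47645 of 52491, 90.8%), and FPKM were summed per gene. Positions and lengths came from the Ensembl annotation.

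Depth was worked out on single-transcript genes with a single accession, of any type but not linc genes. Their FPKM were divided by the value of 1 fragment at an effective length. The best fit had a fragment mean of 195 nt and SD of 68 nt, and put 59.8% to 62.6% of low values within 0.1 of a whole fragment, against 38.9% to 42.4% with the full length. Fragment numbers and their intervals are therefore estimates that cover counting error only.

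Genes that reached 1 FPKM in 2 or more libraries were tested two-sided on log2(FPKM + 1). The tool was limma 3.58.1 (R 4.3.3) with a trend of variance on level, and Benjamini-Hochberg adjusted p under 0.05 over all 14664 genes was the threshold. Degrees of freedom were 3.84 and the median SE was 0.26. An exact permutation test of 2 against 2 libraries cannot go below p = 0.333, so none was used. The fit was tested on simulated data. Named members were the 10 highest, up to 8 per direction without overlap, the 5 with the widest replicate ratio, and the 5 of at least 5 FPKM that varied least, and for each list up to 3 genes with the smallest p. The members and lists were chosen with earlier results of these data known. Alternatives were a pseudocount of 0.1, other filters, no trend, median-centring, quantile normalization, single accessions, a replicate block, each library left out and an adjusted p of 0.1. Tables were prepared in Python 3.11.15 (pandas 2.3.3). Sequences of the members were not used here.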

Additional observations from a re-analysis of the deposited data

Results flagged for a closer look

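Linc-28, a linc gene outside the members, was listed at 34.5 FPKM in mutant replicate 1 and at 0 in mutant replicate 2 and in both wild type libraries. It stood out because a value above that of the wild type libraries appeared in a gene that enters no comparison. Its spliced length is 114 nt, and the value corresponds to about 2.15 fragments.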

How the results depend on the processing

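No linc gene was called under any alternative run. The number of all genes called was 19, against 10 with a pseudocount of 0.1, 92 with no filter, 0 with at least 1 FPKM in all 4 libraries (503 at an unadjusted p under 0.05), 86 without the trend, 9 over single accessions, 82 at an adjusted p under 0.1, and 0 when any 1 library was left out. With a replicate block 0 genes were called (517 at an unadjusted p under 0.05) and 0 linc genes. Deviations of same-numbered libraries had a correlation of -0.193, so the numbers were not taken to pair them. A crossed pairing, added after the data were seen, gave 0 calls. Linc genes without overlap, 22 of 70, numbered 48 of 120 with no filter (23 lower, 25 higher) and 43 to 47 when 1 library was left out, where fewer values have to be separate. After the data were seen, 14 of 47 were counted without exon overlap of another gene (8 lower, 6 higher). With at least 20 estimated fragments there were 9 of 32 (8 lower, 1 higher). For the counts with no filter, with 1 library left out and in these subsets, no share over all genes is given. They are therefore not compared with a background. The median log2 fold change of -0.13 was 0.00 with no filter, -0.02 without exon overlap, -0.20 with at least 20 fragments and -0.19 to 0.05 when 1 library was left out (0.05 without mutant replicate 1); beyond the change in the genes counted, the cause was not tested. Of 31 named linc genes, 12 changed sign in at least 1 leave-one-out fit and 0 under other alternatives. Their ranges were -0.08 to 0.31 for linc-11, -0.45 to 0.08 for linc-15, -1.77 to 0.03 for linc-18, -0.73 to 0.31 for linc-2, -0.42 to 0.06 for linc-21, -0.43 to 0.06 for linc-24, -2.06 to 0.67 for linc-50, -1.80 to 0.59 for linc-59, -0.60 to 0.32 for linc-64, -1.29 to 0.61 for linc-65, -1.08 to 0.17 for linc-71 and -0.35 to 1.09 for linc-97. Linc-10 ranged from -1.58 to -1.26, linc-6 from -0.97 to -0.64, linc-29 from -0.66 to -0.53 and linc-8 from -0.59 to -0.32. Depth limits the low members most, since 17 of 65 tested members with 1 accession rest on fewer than 5 fragments a library.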

Other observations

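Of the 21 linc genes above 0 in a single library, 7 were seen in a mutant library and 14 in a wild type library, and 3 reached 1 FPKM there. Besides linc-28, these were linc-131 with 13.9 FPKM in wild type replicate 1, about 1 fragment on a transcript of 119 nt, and linc-140 with 1.21 FPKM in wild type replicate 1, about 16 fragments on 966 nt. Linc-140 was listed at 0 in the other 3 libraries.

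Among the antisense anr genes, anr-23 had 12.1 and 14.8 FPKM in the mutant libraries, against 25.7 and 22.6 FPKM in the wild type libraries, while anr-50 had 6.80 and 1.73 FPKM in the mutant libraries and 0 (listed) in either wild type library. Neither passed an adjusted p of 0.05 in limma. Of 6 tested neuron genes none was called, with 5 lower and 1 higher by sign. Without overlap 2 were lower and 0 higher, beside 16.2% and 11.9% of all tested genes. Of these, unc-25, for the enzyme that makes GABA, had 37.4 and 34.8 FPKM in mutants, against 46.2 and 46.1 FPKM in wild type. Its unadjusted p in limma was 0.0891. The gene unc-47 was higher by sign and overlapped, with 3.54 and 3.37 FPKM in mutants and 3.41 and 2.89 FPKM in wild type.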
